A study of Mus musculus with 8 samples.

Results

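Ttn, Syne2, Lrp2, Fry and Pdzd2 are 5 genes with very long transcripts whose RNA was recovered with ribosomes in excess of its share of total RNA after mouse embryonic stem (ES) cells became epiblast-like aggregates (ELA). They are 5 of the 3160 genes in the deposited table and were chosen by their measured ratio of ribosome-bound to total RNA, which was raised in ELA. That ratio and every difference in which an ELA level is one of the terms are therefore given as a description, without a p-value. Where calls of the 5 genes are given for such a difference, they are a description as well and no test of the genes. The ES group was the cell line E14Tg2A, from mouse strain 129/Ola, at 0 days, and the ELA group was the same line after 2 days as floating aggregates in a chemically defined minimal medium. At both stages, RNA of the whole clarified lysate (input) was compared with RNA captured with an antibody against the cell's own ribosomal protein Rpl10a (Rpl10a-IP), after cycloheximide had held ribosomes on the RNA. There were 4 groups of 2 libraries, 8 in all, each made from many cells of 1 established line. The labels do not say whether the replicates came from separate cultures, so the spread between them may be technical.

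An mRNA is translated by several ribosomes at a time, and an antibody to a protein of the large ribosomal subunit pulls down the mRNA together with these ribosomes. The ratio of Rpl10a-IP to input, here called ribosome enrichment, then compares the ribosome-bound part of a transcript with its total, on a scale set by the other genes in the libraries. A long coding sequence has room for more ribosomes. The ratio counts reads from any part of the RNA and does not show where on it the ribosomes stood.

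The proteins have different roles. Titin, the product of Ttn, is the giant spring of the muscle sarcomere. Syne2 encodes nesprin-2, a spectrin-repeat protein of the outer nuclear membrane that ties the nucleus to the cytoskeleton. Lrp2 encodes megalin, a giant endocytic receptor found on absorptive epithelia and in the early embryo. Fry encodes a Furry protein, a scaffold for NDR kinases that also acts at microtubules, and Pdzd2 encodes a protein with several PDZ domains, modules that bind the ends of other proteins.

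All 5 genes were long by transcript, and they differed in how that length was used. Coordinates are those of RefSeq on GRCm38.p6, and transcript lengths are those of the longest transcript in GENCODE M1, which covered 3113 of the 3160 genes. Ttn (gene ID 22138) lies on chromosome 2 at 76703980 to 76982557, and its longest transcript of 106824 bases with 347 exons was the longest of all. Syne2 (319565), on chromosome 12 at 75818318 to 76110928, had a transcript of 21704 bases and 115 exons. Lrp2 (14725) lies on chromosome 2 as well, at 69424335 to 69586029, with 15460 bases and 79 exons. Fry (320365), on chromosome 5 at 150118618 to 150497753, had 10756 bases and 63 exons. Pdzd2 (68070), on chromosome 15 at 12359711 to 12739968, had 13413 bases in 24 exons. Their ranks by length were 1, 3, 15, 76 and 32 in the same order, while the median transcript measured 3694 bases and 102 genes reached 10 kb.

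Most of that length was coding in each of the genes. The longest coding sequence was 105642 bases in Ttn, 20625 in Syne2, 13983 in Lrp2 and 9063 in Fry. Pdzd2 had 8391 coding bases and the longest 3′ untranslated region (UTR) of the 5, at 5022 bases. The other 3′ UTRs were below the median of 1429 bases over all genes, at 1051 bases in Ttn, 882 in Syne2, 1305 in Lrp2 and 1327 in Fry. Base composition did not set the genes apart, with 47.4% to 51.8% G and C in a table where 90% of the genes lay between 39.8% and 57.5%. In GENCODE M1, Ttn overlaps Gm13938 and Pdzd2 overlaps Gm2606 on the opposite strand. The sources do not say whether counting used the strand, so reads of these partners could not be told apart from those of Ttn and Pdzd2. On the same strand, annotated genes of small RNAs overlap Fry (snoU13), Syne2 (AC166991.1) and Pdzd2 (AC150660.1). A further miRNA gene, AC135292.1, lies on the strand opposite to Pdzd2.

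MicroRNAs of the miR-290 and miR-17 clusters are abundant in ES cells and bind mRNAs through their seed, bases 2 to 8, so the 3′ UTRs were searched for the complements of both seeds. The mature sequences from RefSeq (GRCm38.p6) are shown 5′ to 3′ with the seed in capitals, since they fall into 2 seed groups that are shifted against each other by 1 base.
miR-291a-3p: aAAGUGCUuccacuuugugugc
miR-294-3p: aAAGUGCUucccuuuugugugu
miR-295-3p: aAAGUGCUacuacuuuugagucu
miR-17-5p: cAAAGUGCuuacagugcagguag
miR-20a-5p: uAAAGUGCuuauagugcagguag

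The complement of the first group, AGCACTT, was found on the transcript strand in 2 of the 5 genes, and that of the second, GCACTTT, in 0 of 5. The words share the letters GCACTT, and neither site holds both words. The 2 sites are printed with their flanks, and the capitals mark the match.
Lrp2 site: ttttacatgtcAGCACTTaatcaataatc
Pdzd2 site: tctgtaattgtAGCACTTgggagacagag

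The Lrp2 match begins at base 465 of the 3′ UTR and the Pdzd2 match at base 4596. Over all 3090 annotated 3′ UTRs, 17.9% held AGCACTT and 16.7% held GCACTTT. The share grew with UTR length, from 10.9% of the 603 UTRs of 800 to 1400 bases, the range of the UTRs of Ttn, Syne2, Lrp2 and Fry, to 42.7% of the 211 UTRs of 4000 to 6000 bases. The Pdzd2 match runs on as GGGAG, as did 52 of the 667 matches in all (7.80%). A match is given as a description of these letters and not as a site of binding.

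The depth of ELA input decides how well each ratio is known. ELA input held 159587 and 410192 reads over the 3160 genes, a median of 26 and 66 reads per gene, against 3898414 to 5380139 reads in ES input and 16076207 to 23483388 in the 4 Rpl10a-IP libraries. In replicates 1 and 2 of ELA input, Lrp2 had 119 and 287 reads, Syne2 had 68 and 139, and Ttn had 27 and 49. Fry rested on 2 and 4 reads, and Pdzd2 on 1 and 2. No gene of the table had fewer ELA input reads than Pdzd2 and 2 had fewer than Fry, while Ttn stood at percentile 42.2 of the genes, Syne2 at 77.6 and Lrp2 at 90.5. Thus 3 of the ratios rested on 27 to 287 ELA input reads a library, and 2 on 1 to 4.

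**Figure D1:**
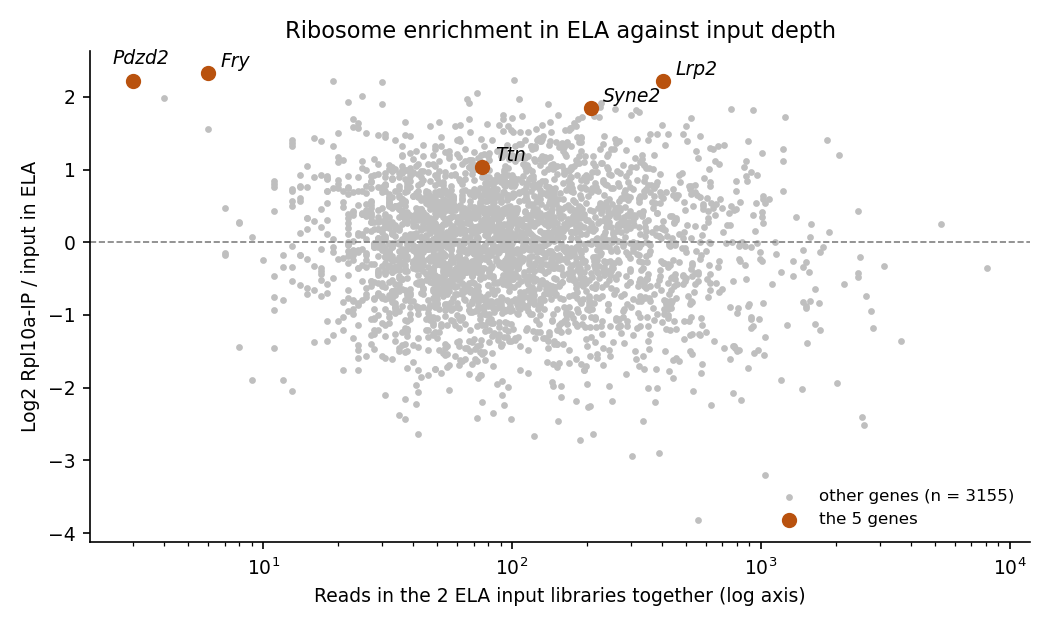
Log2 ribosome enrichment in ELA (vertical axis) against the reads of both ELA input libraries added together (horizontal log axis), for the 3155 other genes (grey) and the 5 genes (orange). Pdzd2 at 3 reads and Fry at 6 lie at the left edge, whereas Ttn (76), Syne2 (207) and Lrp2 (406) lie within the main range of depth.

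Levels below are normalised counts, meaning reads divided by a scaling factor for each library, and 1 read was worth 27.2 and 10.6 normalised counts in ELA input but 0.199 to 0.294 in Rpl10a-IP. Comparisons are log2 differences between group means of log2(normalised count + 1) from limma, with the standard error (SE), and a gene was called at a Benjamini-Hochberg adjusted p below 0.05 over all 3160 genes. In bulk RNA, fewer cells that contain a transcript and less of it per cell cannot be told apart. ELA input replicate 1 was left out by the study's methods for low quality but was used for the deposited ratios, and values without it are given further on. The authors kept in the table only genes whose 2 ratios lay close together (SD over mean of at most 0.1998 in ELA and 0.1995 in ES), so the agreement between replicates is in part imposed and adjusted p-values may be too small.

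Ttn had the lowest ribosome enrichment of the 5 genes in ES. Its normalised counts in ES were 2877 and 2703 in input and 1710 and 1639 in Rpl10a-IP, and in ELA 734 and 519 in input and 1328 and 1205 in Rpl10a-IP. The 4 groups did not overlap, and the order of input and Rpl10a-IP was turned around between the stages. Mean levels in ES were 2790 ± 123 in input and 1674 ± 50.2 in Rpl10a-IP, and in ELA 627 ± 152 and 1266 ± 86.9 (SD, n = 2). Total Ttn RNA was thus lower in ELA by 4.51-fold (log2 -2.17, SE 0.12), and its ribosome-bound RNA was lower by 1.32-fold (log2 -0.40, SE 0.092). Corrected for transcript length, the log2 difference in total RNA was -0.029, or -2.15 where the correction was fitted without the 5 genes, and it was -0.0055 with a replicate block and G and C content added. The ribosome-bound difference was -0.22, -1.77 and 0.17 in the same order. Reads of this sarcomere gene were thus found at both stages, while 0 of 14 other muscle markers were in the filtered table.

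Syne2 was higher in ELA in both fractions, and far more so on ribosomes. Its normalised counts in ES were 450 and 465 in input and 467 and 399 in Rpl10a-IP, and in ELA 1849 and 1473 in input and 6371 and 5531 in Rpl10a-IP. The ES fractions overlapped, with means of 458 ± 10.6 and 433 ± 47.8 (SD, n = 2), whereas both ELA groups stood above them and apart from each other. Total RNA was 3.60-fold higher in ELA (log2 1.85, SE 0.12), and ribosome-bound RNA was 13.7-fold higher (log2 3.78, SE 0.094), the change that ranked 10 from the top of the table. Under the same 3 length corrections the ribosome-bound difference was 2.41 to 2.52.

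Lrp2 was higher in ELA in both fractions too, and it had the most ELA input reads of the 5 genes. Its normalised counts in ES were 1990 and 1792 in input and 2480 and 2174 in Rpl10a-IP, and in ELA 3235 and 3042 in input and 14813 and 14291 in Rpl10a-IP. The 4 groups did not overlap, and their levels increased in that order. Total Lrp2 RNA was 1.66-fold higher in ELA (log2 0.73, SE 0.10), while ribosome-bound RNA was 6.26-fold higher (log2 2.65, SE 0.088). With transcript length corrected in the same 3 ways, the difference was 0.38 to 0.49 in total RNA and 1.34 to 1.46 in ribosome-bound RNA. Of 11 markers of visceral endoderm and absorptive epithelium, where megalin is best known, 0 were in the table.

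Fry had far lower total RNA in ELA, with ribosome-bound levels of 243 to 276 normalised counts at both stages. Its normalised counts in ES were 231 and 226 in input and 264 and 276 in Rpl10a-IP, and in ELA 54.4 and 42.4 in input and 243 and 248 in Rpl10a-IP. The ELA input libraries lay below all others, and the remaining 3 groups lay within 226 to 276. Total RNA was lower by 4.68-fold (log2 -2.22, SE 0.15), and the log2 difference in ribosome-bound RNA was -0.14 (SE 0.13). Under the 3 length corrections the ribosome-bound difference was -1.13 to -1.25. In summed reads, the total was lower by 4.99-fold, with a 95% exact counting interval of 2.28 to 13.7. Fry reached the input limit of the filtered table, a mean deposited input of at least 50.02, in ES alone. Its low total in ELA thus follows in part from the choice of the genes and the filter.

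Pdzd2 was lower in ELA in both fractions. Its normalised counts in ES were 272 and 249.9 in input and 265 and 252 in Rpl10a-IP, and in ELA 27.2 and 21.2 in input and 127 and 104 in Rpl10a-IP. The ES fractions overlapped, and the ELA groups lay below them and apart from each other. Total RNA was lower by 10.5-fold (log2 -3.39, SE 0.17), the fourth lowest value in the table, and ribosome-bound RNA was lower by 2.23-fold (log2 -1.16, SE 0.14). The table kept genes whose mean deposited input was at least 50.02 at 1 stage or both, and Pdzd2 reached this in ES alone. Its low total in ELA and its rank thus follow in part from the choice of the genes and the filter. The difference in total RNA, which rests on 3 ELA input reads, was -2.54 with a pseudocount of 25. The ribosome-bound difference was -2.33 to -2.40 under the length corrections. In summed reads, the difference in total RNA was 11.5-fold with a counting interval of 3.90 to 55.8, and that in ribosome-bound RNA was 2.19-fold with an interval of 2.03 to 2.36. The intervals here and below cover counting error only.

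**Figure D2:**
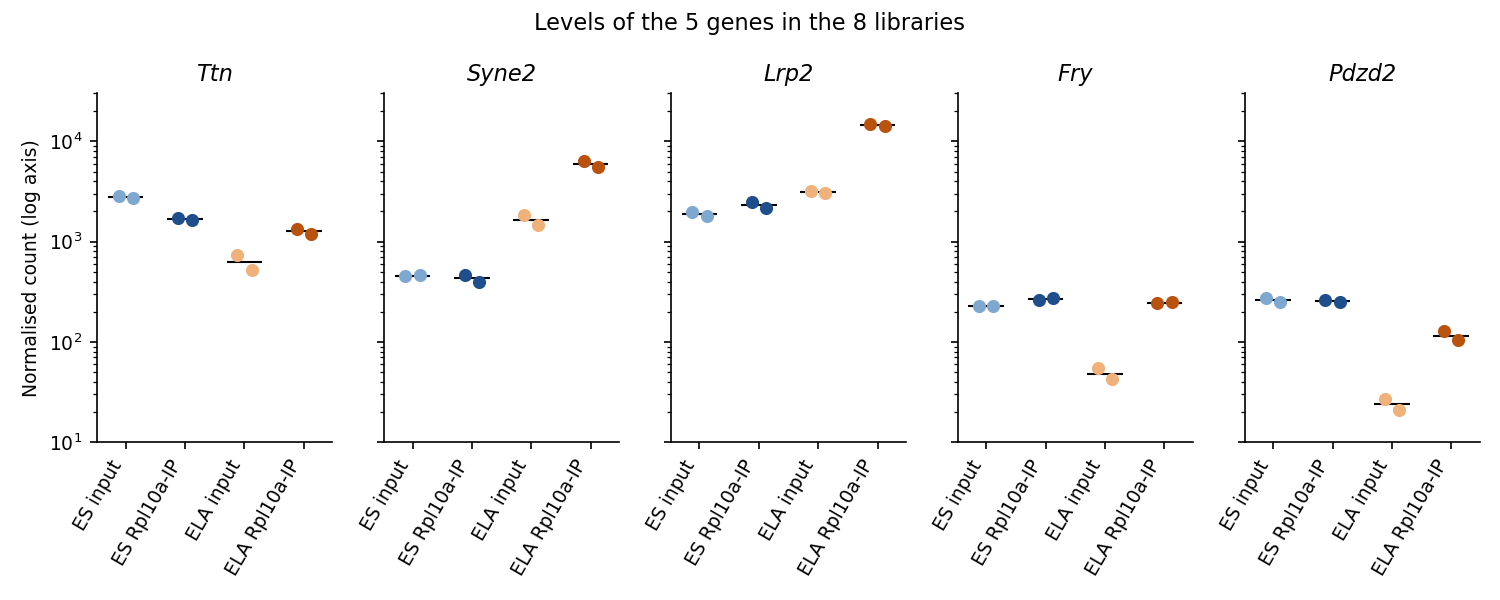
Normalised counts (log axis) of the 5 genes in the 8 libraries. Each point is a library and each bar the mean of 2, for input and Rpl10a-IP of ES (blue) and of ELA (orange). Syne2 and Lrp2 were highest in ELA Rpl10a-IP, while Ttn, Fry and Pdzd2 had their lowest values in ELA input.

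The 2 terms of the ratio by which the genes were chosen differed among them, and they are given as a description. For Syne2 and Lrp2, both fractions were higher in ELA and Rpl10a-IP more than input. For Ttn, Fry and Pdzd2, total RNA was lower by 4.51-fold to 10.5-fold. Ribosome-bound RNA was lower by 1.32-fold for Ttn and by 2.23-fold for Pdzd2. Its log2 difference for Fry was -0.14, or -1.13 to -1.25 under the 3 length corrections. Called in total RNA were 5 of the 5 genes, 2 higher and 3 lower, where 70.2% of all genes were called, 34.5% higher and 35.8% lower. Called in ribosome-bound RNA were 4 of 5, 2 higher and 2 lower, where 83.4% of all genes were called, 41.1% higher and 42.3% lower. Lower by more than 2-fold in total RNA were Ttn, Fry and Pdzd2, and 7.88% of all genes. Nothing is read from these counts or from the differences among the genes, since the genes were chosen with these libraries.

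Per kb of transcript, the genes were closer to each other in ES input than in ELA Rpl10a-IP. Levels per kb were 122 ± 9.06 normalised counts in ES input for Lrp2, 26.1 ± 1.15 for Ttn, 21.2 ± 0.325 for Fry, 21.1 ± 0.489 for Syne2 and 19.4 ± 1.14 for Pdzd2 (SD, n = 2). Fry and Syne2 did not differ beyond that spread, and Pdzd2 lay below them by about the sum of the SDs. In ELA Rpl10a-IP, the levels per kb were 941 ± 23.9 for Lrp2, 274 ± 27.4 for Syne2, 22.8 ± 0.327 for Fry, 11.9 ± 0.814 for Ttn and 8.64 ± 1.22 for Pdzd2. Here the neighbours in the order were separated by more than their SDs. These levels assume that the longest annotated transcript was the one present, which the table does not show.

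Ribosome enrichment in ES is a difference between ES levels only, and p-values of the 5 genes are given for it alone. The fit used 7 libraries, 3 of them of ELA, and took the spread of each gene wholly from the trend over all genes. Its SE and p-values thus do not measure the spread between a gene's own replicates. This holds for the fit on the 4 ES libraries and for the ribosome-bound change too. The ES libraries do enter the change in ratio, by which the genes may have been ranked. Ttn had ratios of 0.594 and 0.606 in the 2 ES replicates, both well below 1. Its log2 difference between Rpl10a-IP and input was -0.74 (SE 0.092, limma adjusted p = 1.8e-13), a value that ranked 48 from the lowest of the table. Corrected for transcript length, it was -0.060 (limma adjusted p = 0.60), or -0.87 where the correction was fitted without the 5 genes, and with a replicate block and G and C content added it was 0.21 (limma adjusted p = 0.022). Lrp2 had ratios of 1.25 and 1.21, both above 1, with a log2 difference of 0.30 (SE 0.088, limma adjusted p = 0.0033). The call for Lrp2 was lost without ES input replicate 2 (log2 0.22, limma adjusted p = 0.095) and without ES Rpl10a-IP replicate 1 (log2 0.20, limma adjusted p = 0.18). Fitted on the 4 ES libraries alone, limma's adjusted p was 1.1e-15 for Ttn and 0.0022 for Lrp2, and on all 8 libraries it was 6.26e-05 and 0.034, with the log2 differences as above.

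The other 3 genes did not pass the test in ES. Syne2 had ratios of 1.04 and 0.859 on both sides of 1, with a log2 difference of -0.083 (SE 0.094, limma adjusted p = 0.51). Fry had ratios of 1.14 and 1.22 and a log2 difference of 0.24 (SE 0.13, limma adjusted p = 0.13). Pdzd2 had ratios of 0.975 and 1.01 and a log2 difference of -0.011 (SE 0.14, limma adjusted p = 0.96). In all, 2 of 5 genes were called, 1 higher and 1 lower, where 39.5% of all genes were called, 19.5% higher and 20% lower. That share lies near the share in the table, and the 5 genes did not lie on 1 side of the input in ES. Of the 5 genes, Ttn alone had a value outside the range that held 95% of the table, -0.65 to 0.51.

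In ELA the ratios were above 1 in both replicates of each gene. Ttn had ratios of 1.81 and 2.32 with 95% exact counting intervals of 1.24 to 2.75 and 1.75 to 3.14. Syne2 had 3.45 (2.72 to 4.44) and 3.75 (3.18 to 4.47), and Lrp2 had 4.58 (3.83 to 5.53) and 4.70 (4.18 to 5.29). Fry had 4.46 (1.23 to 36.9) and 5.84 (2.27 to 21.5), and Pdzd2 had 4.69 (0.838 to 185) and 4.92 (1.35 to 40.8). The ELA interval of Pdzd2 in replicate 1 held its ES ratio, and that of Fry in replicate 1 began below the upper end of its ES interval of 1.00 to 1.31.

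With the reads of both replicates added, the ratios and counting intervals are given as a description only, since the genes were chosen by them. Ttn came to 2.21 (1.76 to 2.80) in ELA and 0.597 (0.579 to 0.616) in ES. Syne2 came to 3.82 (3.33 to 4.40) against 0.947 (0.881 to 1.02), and Lrp2 to 4.72 (4.28 to 5.21) against 1.22 (1.18 to 1.26). Fry came to 5.34 (2.45 to 14.6) against 1.18 (1.07 to 1.31), and Pdzd2 to 5.16 (1.76 to 25.1) against 0.985 (0.896 to 1.09). A low count in ELA input raises the ratio by which the genes were chosen, and its part in the values of Fry and Pdzd2 was not tested.

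**Figure D3:**
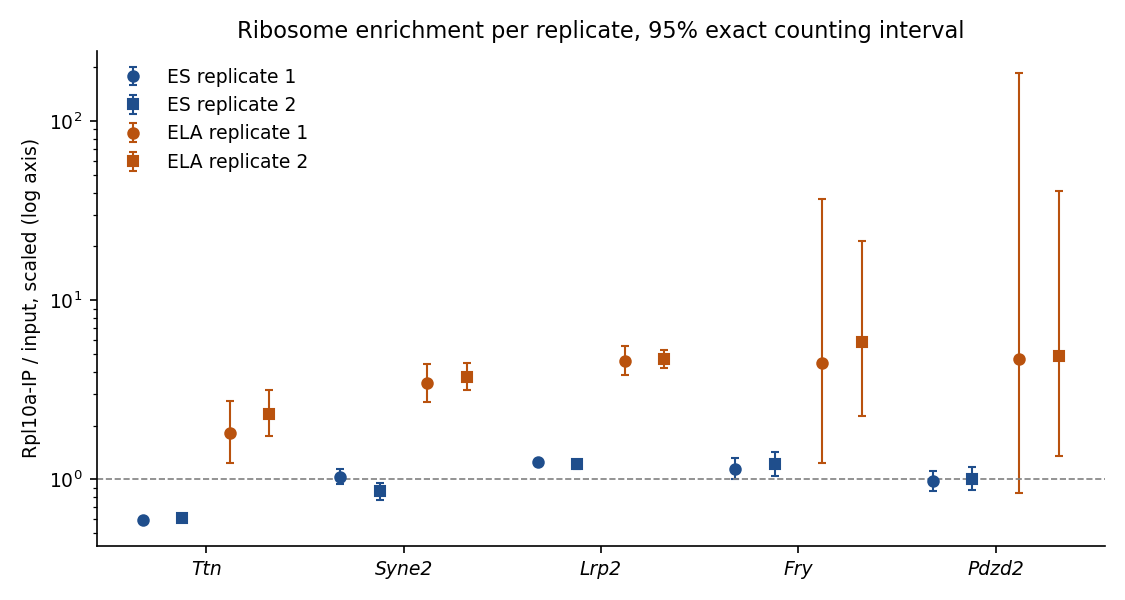
Rpl10a-IP over input, on a log axis, for each gene in ES (blue) and ELA (orange), with circles for replicate 1, squares for replicate 2 and bars for the 95% exact counting interval. ES ratios lie between 0.594 and 1.25, ELA ratios between 1.81 and 5.84, and the intervals of Fry and Pdzd2 in ELA are far wider than those of the other 3 genes.

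Fitted log2 ribosome enrichment in ELA was 1.03 for Ttn (SE 0.12), 1.85 for Syne2 (SE 0.12), 2.21 for Lrp2 (SE 0.10), 2.33 for Fry (SE 0.15) and 2.22 for Pdzd2 (SE 0.17). Fry had the highest value of the table, Pdzd2 ranked 4, Lrp2 5, Syne2 18 and Ttn 274. The places of Fry and Pdzd2 rest on 6 and 3 ELA input reads, and with a pseudocount of 25 their values were 1.88 and 1.52, below the 2.20 of Lrp2. All 5 were called, and all were higher by more than 2-fold, where 74% of all genes were called and 9.43% were higher by more than 2-fold, and these counts follow from the choice of the genes. Under the length corrections, enrichment in ELA was -0.50 to 0.39 for Ttn, 0.40 to 0.75 for Syne2, 1.14 to 1.25 for Lrp2, 1.57 to 1.60 for Fry and 1.28 to 1.35 for Pdzd2. Ttn was also below 2-fold with total reads scaling (0.92), without ELA input replicate 2 (0.78) and without ELA Rpl10a-IP replicate 1 (0.96). The reported values of Fry, Pdzd2 and Lrp2 lay within their SEs of each other, whereas Ttn lay below Syne2 and Lrp2. The SEs of Fry and Pdzd2 do not hold the counting error of 6 and 3 reads. Their summed counting intervals (2.45 to 14.6 and 1.76 to 25.1) overlapped that of Ttn (1.76 to 2.80), so Ttn is not shown to lie below these 2.

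The change in ribosome enrichment, that is the log2 ratio in ELA minus that in ES, put Ttn back among the others. It was 1.77 for Ttn (SE 0.18), 1.93 for Syne2 (SE 0.17), 1.91 for Lrp2 (SE 0.15), 2.09 for Fry (SE 0.21) and 2.23 for Pdzd2 (SE 0.24). Within the replicates, the ELA ratio was 3.04 and 3.83 times the ES ratio for Ttn, 3.32 and 4.37 times for Syne2, 3.67 and 3.87 times for Lrp2, 3.90 and 4.78 times for Fry, and 4.81 and 4.87 times for Pdzd2. The widest gap, between Pdzd2 and Ttn, was about the sum of their SEs. All 5 genes were called and were higher by more than 2-fold, where 56.2% of the table was called, 6.33% higher and 9.05% lower by more than 2-fold, and again nothing is read from the count. Ttn lost its call under 2 of the 3 length corrections described further on.

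In the order of this change, Pdzd2 ranked 1, Fry 3, Syne2 4, Lrp2 5 and Ttn 10 of 3160. The order among the 5 turned with a pseudocount of 25, where Pdzd2 (1.53) and Fry (1.67) were below the other 3 (1.73 to 1.91). Just outside the last of them stood Bre at 1.77, Vps16 at 1.76 and Ttc37 at 1.70, and the members nearest to them were Ttn at 1.77 and Lrp2 at 1.91. Brip1 (2.15), Dst (1.91), Ndufa9 (1.88), Epg5 (1.85) and Wdr35 (1.83) stood between the members and were not among the 5. Of these 8 genes, Bre rested on 1 and 3 ELA input reads and Brip1 on 4 and 15, whereas Dst, which encodes the giant cytoskeletal linker dystonin, had 427 and 825. Without ELA input replicate 1, the changes were 2.02 for Ttn, 2.09 for Syne2, 1.96 for Lrp2, 2.26 for Fry and 2.40 for Pdzd2, and the members ranked 5, 4, 6, 2 and 1. ELA input was then a single library, with 2 reads for Pdzd2 and 4 for Fry.

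Length moved with the change over the whole table. In the other genes, the median change rose from -0.48 in 504 genes under 2 kb to -0.10 in 1228 genes of 2 to 4 kb, 0.14 in 769 genes of 4 to 6 kb, 0.35 in 366 genes of 6 to 8 kb, 0.52 in 144 genes of 8 to 10 kb and 0.77 in 97 genes of 10 kb or more. ES enrichment changed far less along the same classes, from -0.11 to 0.090. Both fractions moved with length between the stages, as the median difference rose from -0.45 to 0.42 in total RNA and from -0.91 to 1.23 in ribosome-bound RNA. The 5 genes, at 1.77 to 2.23, lay above the upper quartile of 1.24 of the longest class, a place that follows from their choice by this ratio. The classes share all 8 libraries, so they are no independent measurements, and the part of length in the values of the 5 genes was not tested beyond the corrections given below.

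**Figure D4:**
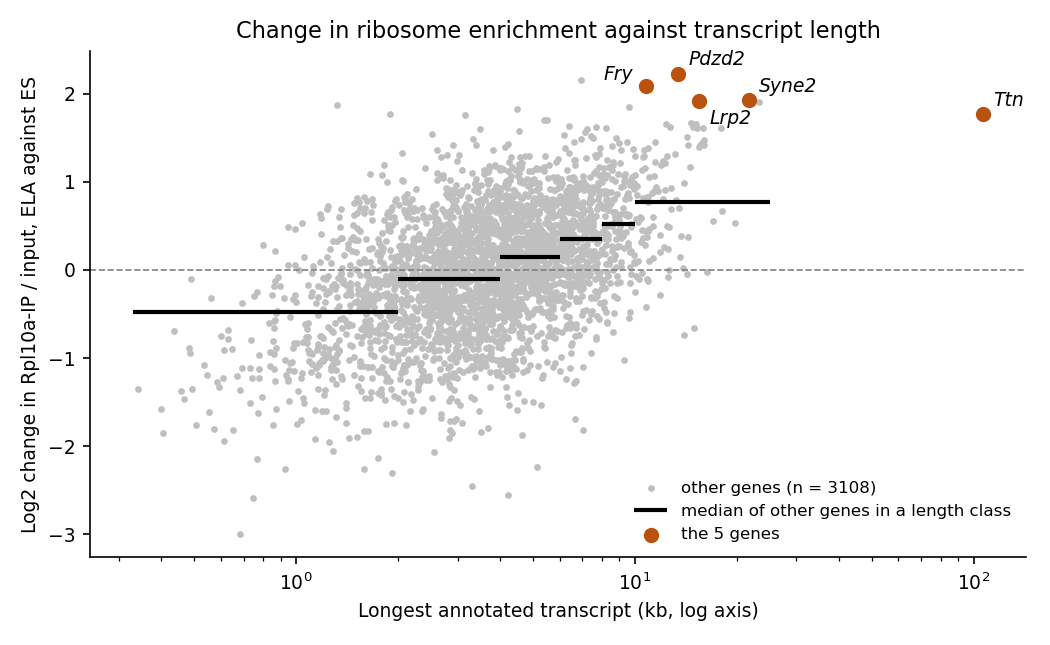
Log2 change in ribosome enrichment from ES to ELA against the length of the longest annotated transcript (log axis in kb) for 3108 other genes (grey) and the 5 genes (orange). Black bars give the median of the other genes in each length class, which rose from -0.48 under 2 kb to 0.77 at 10 kb or more. The 5 genes, chosen for a raised ratio, lie above the bar of their class.

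The 100 longest other genes showed the same direction at a smaller size. Their median change was 0.74, where the median of all genes was 0.0084. Of these 100 genes, 72 were called higher and 3 lower, where 28.4% of all genes were called higher and 27.7% lower. In the 95 of them with at least 10 reads in each ELA input library, the median was 0.70. The 5 longest of them were Dst at 1.91, the histone methyltransferase gene Kmt2d at 0.53, Ahnak at 0.67, the ribosome assembly gene Mdn1 at 1.62 and the miRNA silencing gene Tnrc6b at 0.55. All of these 5 passed the test. Ahnak was similar to Ttn in that its total RNA was lower in ELA (log2 -3.00) and its ribosome-bound RNA less so (log2 -2.32).

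When each library was first corrected for transcript length by a smooth curve, the changes became smaller. Fitted without the 5 genes, this correction left 1.42 for Fry, 1.38 for Pdzd2, 0.94 for Lrp2, 0.61 for Syne2 and 0.37 for Ttn. Over the 3 length corrections tried, Fry stayed between 1.37 and 1.42, Pdzd2 between 1.37 and 1.40, Lrp2 between 0.94 and 0.99 and Syne2 between 0.61 and 0.78. Ttn was at -0.20 when the curve included it and at 0.18 when G and C content and the replicate number were added, and in neither was it called. No other gene of the table was longer than 23285 bases, so the curve at the length of Ttn rests on Ttn itself or, without it, on the next longest genes. A pseudocount of 25, about the worth of 1 read in ELA input replicate 1, reduced the change to 1.67 for Fry and 1.53 for Pdzd2 and left the other 3 between 1.73 and 1.91.

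**Figure D5:**
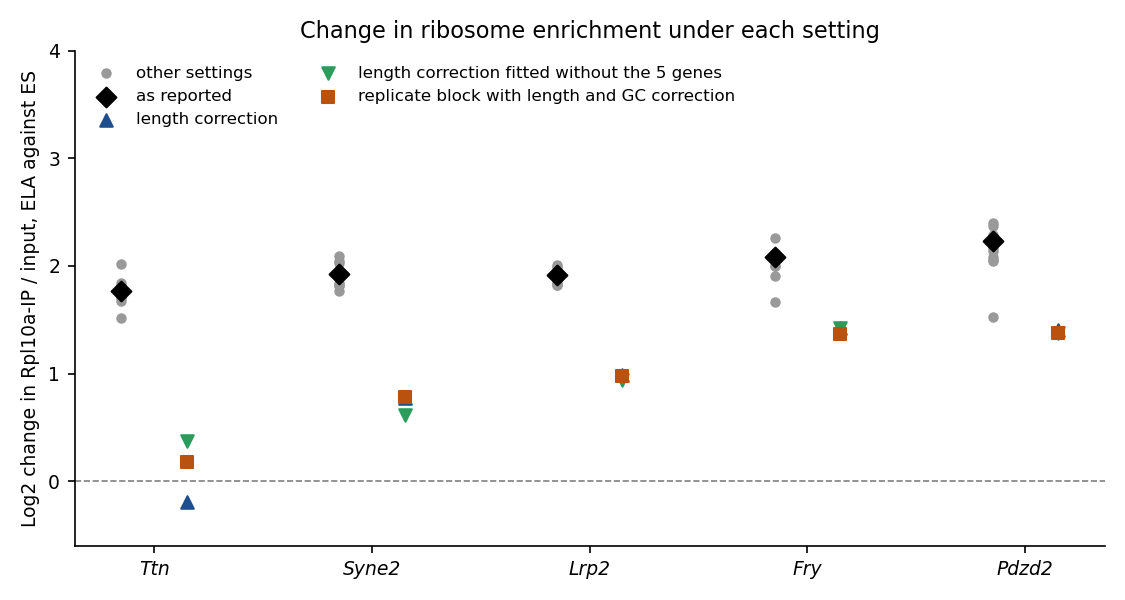
Log2 change in ribosome enrichment from ES to ELA for the 5 genes under each setting of the processing. Black diamonds are the reported values, grey circles other settings without length, and triangles and squares the 3 length corrections. Values without length correction stay between 1.52 and 2.40, and the length corrections bring Ttn to between -0.20 and 0.37.

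Related genes, listed by role with earlier results of these data known, did not all move as the 5 genes did. Of 79 other genes for giant proteins, 30 were in the table, and 28 of these were called higher and 1 lower, with a median change of 1.20. For this list and those that follow, the table as a whole had 28.4% called higher and 27.7% lower, and a median of 0.0084. Dst (1.91) and Fat1 (1.67), a giant cadherin, had the highest changes among those with at least 10 ELA input reads per library. The lowest were Dmd, the gene of dystrophin, at -0.66, and Ank2, which encodes a giant ankyrin, at -0.046, which did not pass the test. Dmd and Ank2 have transcripts of 14910 and 14215 bases, about the length of Lrp2 and Pdzd2.

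For Lrp2, values are given for the related receptor genes of the LRP name with at least 10 reads in each ELA input library, without a summary of the list. Lrp1, which encodes another giant endocytic receptor, was at 1.63 with a transcript of 14888 bases, and the Wnt co-receptor gene Lrp6 was at 0.80, both called higher. Lrp11 was at -0.42 and called lower. Lrp1 also resembled Lrp2 in the fractions, with log2 changes of 1.65 in total and 3.28 in ribosome-bound RNA.

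For Syne2, 5 of 16 genes of nesprins, SUN proteins and lamins were in the table, 1 called higher and 3 lower, with a median of -0.44. Sun1, a partner of nesprins in the inner nuclear membrane, was at 0.67. Lmnb1, the gene of lamin B1, was at -0.77 and the lamina gene Tmpo at -0.48, both called lower, and Lemd3 was at 0.19 and did not pass the test. Beside Syne2 at 1.93, these 4 genes of shorter transcripts, 2843 to 4743 bases, lay between -0.77 and 0.67.

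For Fry, 7 of 20 genes of Furry proteins and NDR or Hippo kinases were in the table, 1 called higher and 2 lower, with a median of 0.10 whose sign changed with the processing. Fryl, the paralogue of Fry, was at 1.22 on 52 and 98 ELA input reads and with a transcript of 11470 bases. Unlike Fry, Fryl was higher in ELA in total (log2 0.54) and in ribosome-bound RNA (log2 1.77). The kinase gene Stk3 was at -1.01 and Mob4 at -0.70, both called lower, and the NDR kinase gene Stk38l was at 0.24 and did not pass the test.

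For Pdzd2, 13 of 37 PDZ scaffold genes were in the table, 5 called higher and 1 lower, with a median of 0.27. Ptpn13 was at 1.25 and Magi3 at 1.19, both called higher. Lin7c was at -0.78 and called lower, and Mpp6 was at -0.19 and did not pass the test. None of these 4 had a transcript as long as that of Pdzd2.

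Among the 2776 other genes with at least 10 reads in each ELA input library, the profile most like the mean of the 5 genes was that of Ninl (Pearson r = 0.991 over 8 libraries, on centred log2 values). Kdm3b (r = 0.988), Eif2ak3 (r = 0.983), Smcr8 (r = 0.983) and Pms2 (r = 0.982) followed. Their changes in enrichment were between 0.82 and 1.15 and their transcripts between 4513 and 7391 bases, so they were shorter than any of the 5. The 5 genes did not share one profile, since Pearson r over the 8 libraries was 0.94 between Syne2 and Lrp2 and 0.94 between Ttn and Pdzd2 but -0.52 between Ttn and Syne2, so their mean averages unlike profiles. The 8 points share scaling, and the values are a description.

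The stage labels were checked on markers. Naive ES markers, of which Nanog, Klf4, Klf2, Tfcp2l1 and Fgf4 were in the table, summed to 10782 and 11088 normalised counts in ES input and to 1590.0 and 1686 in ELA input. Pou5f1 and Sall4, 2 of 4 core pluripotency markers, summed to 7896 and 8948 in ES input and to 5629 and 5791 in ELA input. Total RNA of Pou5f1 was lower in ELA (log2 -1.18) and that of Sall4 was not (log2 0.25). Of 7 markers of the primed epiblast, Dnmt3b was the one in the table, at 3063 and 3188 in ES input and 18169 and 20200.4 in ELA input. Nes and Map2, 2 of 7 neural markers, summed to 635 and 662 in ES input and to 3169 and 3344 in ELA input. Their part in the levels of the 5 genes was not tested.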

How the data were processed

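RNA of E14Tg2A ES cells and ELA was sequenced in 4 groups of 2 libraries. The authors mapped reads to the mm10 transcriptome with TopHat2, without repeats, counted them with htseq-count and divided them by DESeq2 size factors. The result, a signal of normalised counts, is what each library's deposited column holds. The labels name no versions. A further 26 deposited columns hold the authors' means and SDs, their Rpl10a-IP to input ratios and the log2 fold change of these ratios, and were not used. The deposited table is filtered (a larger mean input value of at least 50.02, and close ratios).

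In each library, 100% of the values were whole multiples of the smallest step between values, within 0.001 of a read, and this step was taken as 1 read. They were divided by trimmed-mean-of-M-values factors, and log2(normalised count + 1) was fitted with limma 3.58.1 (R 4.3.3, lmFit, eBayes with trend). Enrichment in ES and the ribosome-bound change used 7 libraries, without ELA input replicate 1, and the other 3 comparisons used 8. Ratios carry exact (Clopper-Pearson) 95% intervals of the reads. The named genes were the 5 members, of each list the 2 highest and 2 lowest changes among genes with at least 10 reads in each ELA input library, the 5 longest other genes, the 5 most alike in profile and the 3 next in order. Brip1, Ndufa9, Epg5 and Wdr35 were named after their values were seen. The members and lists were chosen with earlier results of these data known. The script was tested on simulated data. Alternatives were other scalings, pseudocounts of 0.1 and 25, a filter on reads, each library left out, a replicate block, length and G and C corrections, and no trend. A gene of the list for Lrp2 is not reported here, and that list is given without its count or median.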

Additional observations from a re-analysis of the deposited data

Results flagged for a closer look

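Ribosome enrichment differed between ELA and ES in each of the 5 genes by the interaction term of the fit, with log2 differences of 1.77 for Ttn, 1.93 for Syne2, 1.91 for Lrp2, 2.09 for Fry and 2.23 for Pdzd2. The genes were picked for this ratio, so the term is a description and no evidence of its own.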

How the results depend on the processing

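The number of the 5 genes called was within 1.5 times of the reported count under the settings tried, with these exceptions. For enrichment in ES it was 1 under the length correction and 1 to 2 when libraries were left out in turn. With a mean of at least 10 ELA input reads it was 3 for enrichment in ELA, total RNA and the change in enrichment, since Fry and Pdzd2 were then not tested. Signs turned as follows. Ttn came to 0.21 for enrichment in ES and 0.17 for ribosome-bound RNA under the replicate block with length and GC correction, to -0.25 for enrichment in ELA and -0.20 for the change under the length correction, and to -0.50 for enrichment in ELA when that correction was fitted without the 5 genes. Near 0, enrichment in ES ranged from -0.20 to 0.029 for Syne2 with a library left out, turning without ES Rpl10a-IP replicate 2, and from -0.071 to 0.049 for Pdzd2, turning without ES input replicate 1 and without ES Rpl10a-IP replicate 2 (0.024). For enrichment in ES, Fry passed the test with no trend in the prior (limma adjusted p = 0.048) and Syne2 under the length correction fitted without the 5 genes (-0.21, limma adjusted p = 0.046). Under the length correction, alone or with block and GC, the total RNA difference of Ttn was no longer called (-0.029 and -0.0055). The ribosome-bound difference of Fry was -1.13 to -1.25 under the 3 length corrections.

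The median change of the 100 longest other genes was 0.65 with total reads scaling, 0.70 with a pseudocount of 25, 0.65 to 0.79 with a library left out, 0.044 under the block with length and GC correction, and -0.027 and -0.034 under the length corrections with and without the 5 genes, which remove the trend by construction. The median of the Furry and NDR list was -0.097 to 0.20 with a library left out, turning without ES input replicate 2 and without ELA input replicate 1 (-0.032), and it was -0.11 under the block with length and GC correction and -0.27 and -0.28 under the other length corrections. The cause was not tested.

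Per the protocol the input was part of the lysate used for Rpl10a-IP, but the labels do not say that a shared number marks a shared lysate. Deviations of same-numbered libraries from the group means correlated at 0.17 between ES fractions, 0.50 between ELA fractions, 0.15 between inputs and -0.025 between Rpl10a-IP libraries. With the replicate number as a block, 2 of the 5 genes were called for enrichment in ES, 5 for enrichment in ELA, total RNA and the change, and 4 for ribosome-bound RNA, the same numbers as without it. Genes called for enrichment in ES over the table were 1247, but 1343 with the 4 ES libraries alone, a fit chosen after seeing the data, 762 with all 8 libraries, 722 without ES Rpl10a-IP replicate 1 and 753 without replicate 2. The median of all genes moved from -0.012 to -0.12 for enrichment in ELA with total reads scaling and from -0.024 to -0.14 for ribosome-bound RNA with the deposited size factors. A count model in edgeR was not run, since the tests kept to normalised counts even though reads were read back, and the deposited size factors were not used for enrichment within a stage, as input and Rpl10a-IP were scaled apart.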
